A study of Homo sapiens with 58 samples.

Results

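Triple-negative breast cancer cell lines were compared by the kind of lesion they were established from. The 7 effusion lines were MDAMB231, MDAMB436, MDAMB468, MDAMB157, CAL51, CAL120 and COLO824, each reported to come from pleural effusion fluid. The 10 primary lines were HCC38, HCC70, HCC1143, HCC1187, HCC1395, HCC1806, HCC1937, BT20, BT549 and HS578T, each reported to come from a primary breast tumour. These 17 lines are part of a baseline panel of 58 human breast lines, all called breast cancer in the labels although some are reported to be immortalised mammary cells. The labels name each line but give neither its site of origin nor its receptor class, so both were taken from what is reported about the lines and not from any measured value. Per the labels all lines were grown as the vendor recommends and received no treatment, and each was measured on 1 custom Affymetrix array. The line is therefore the unit of every comparison, a p-value measures only the spread between these lines, and the number of arrays limits the precision. Origin cannot be told apart from the collection that produced a line: 4 of the 7 effusion lines belong to the MDAMB collection and 7 of the 10 primary lines to the HCC collection. Culture media may also differ between the sides, and the part of the medium in any result was not tested.

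A malignant pleural effusion is fluid around the lung that holds tumour cells which have left the breast and often grow without attachment, so lines from it represent disseminated disease. Triple-negative tumours lack the estrogen and progesterone receptors and amplified HER2. Some keep a basal character, marked by keratins and adhesion proteins of the outer cell layer of the gland, and others have a mesenchymal character with few epithelial junctions.

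The receptor levels were set beside the label first. PGR, the progesterone receptor, was at most 4.33 on the log2 scale in the 17 lines, against 11.55 in T47D, the highest of the other 41 lines. ESR1, the estrogen receptor, reached 9.02 among effusion lines (MDAMB468) and 10.64 among primary lines (BT20), and both stayed below the 12.73 of T47D. The median ESR1 level was 6.27 over the 17 lines and 6.78 over the other 41. It was 4.03 in effusion lines and 7.52 in primary lines. ERBB2, which encodes HER2, was highest in COLO824 among effusion lines, at 11.98, and in HCC1187 among primary lines, at 12.17, against 13.70 in AU565. The median ERBB2 level was 10.14 over the 17 lines and 11.28 over the other 41. ESR1 transcript was thus not at the bottom of the scale in every line called triple-negative.

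A further array, MB157, is reported to be of the same donor as MDAMB157 and was not used in the main comparison. These arrays were unlike. Their Pearson r over the 1000 genes most variable among the 58 lines was 0.37, and MB157 ranked 15 of 57 by likeness to MDAMB157, where FR2, BT549 and HS578T ranked highest. MDAMB157 had 12.41 of LUM and 6.23 of CDH1, a matrix protein and the epithelial cadherin, whereas MB157 had 3.46 and 12.77. They shared 1 rare feature, since B2M, the invariant chain of MHC class I, was 3.17 in MDAMB157 and 2.86 in MB157 and at least 11.46 in every other line of the 58. Results that rest on MDAMB157 are therefore also given without it. Array quality, as the interquartile range of relative log expression, was 0.528 ± 0.0293 in effusion lines and 0.543 ± 0.0114 in primary lines (SD, n = 7 and 10, exact two-sided permutation p = 0.147).

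No gene passed the test between the sides. Of 13461 genes tested with limma, 0 were higher and 0 were lower in effusion lines at a Benjamini-Hochberg adjusted p under 0.05, which is 0% in each direction, and the smallest adjusted p was 0.569. At an unadjusted limma p under 0.05 there were 454 genes with a higher mean in effusion lines, 3.37% of those tested, and 338 with a lower mean, 2.51%. The same test without a trend in the spread and without robust weights called 0 genes, with 445 and 359 at that unadjusted p. Effusion and primary lines did not overlap for 0 genes in the higher direction (0%) and for 1 gene in the lower direction (0.00743%). The median difference over all genes, effusion minus primary, was 0.01 on the log2 scale, and 158 genes differed by more than 2. The spread between lines was wide beside these differences, with a median residual SD of 0.64 and a median standard error of 0.32. A p that misses the threshold does not show that the sides are alike, so differences below are given with their 95% intervals, and no gene named below passed the adjusted threshold in this comparison.

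The gene with the smallest p among those higher in effusion lines was LYPD6, a Ly6-family protein that modulates Wnt signalling. Its levels were 8.56, 9.65 and 11.06 (lowest, median, highest) in effusion lines and 5.51, 7.49 and 8.67 in primary lines. The groups overlapped at their edges, where MDAMB231 lay just below HCC1143. The difference was 2.33 (95% interval 1.33 to 3.32, unadjusted limma p = 0.000126). SLC2A13, a myo-inositol transporter, was between 6.81 and 8.18 in effusion lines, with a median of 7.26, and between 3.27 and 6.98 in primary lines, with a median of 4.83. Only HCC1187 among primary lines reached the narrow effusion band, a difference of 2.31 (1.22 to 3.39, p = 0.00033 by limma). MERTK, a receptor kinase of the TAM family through which cells take up dying neighbours, was 5.81, 7.26 and 10.41 in effusion lines and 3.65, 4.77 and 6.87 in primary lines. COLO824 and CAL51 were the high lines, and CAL120 and MDAMB468 lay inside the primary range. The difference was 2.85 (1.49 to 4.22), with an unadjusted limma p of 0.000388.

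The other 12 of the 15 genes leading in this direction were CXorf38, TIMM17B, E2F6, AP1S2, CLGN, SNAP91, WDR13, PDIA6, CNIH3, GLRB, SLC35D1 and ZNF678. Some were small and even differences. PDIA6, a disulfide isomerase of the endoplasmic reticulum, lay between 12.17 and 12.38 in effusion lines and between 11.53 and 12.33 in primary lines, a difference of 0.43 (0.20 to 0.67). TIMM17B, a part of the mitochondrial import channel, was 9.39 to 9.96 in effusion lines and 8.27 to 9.56 in primary lines. Others had wide spreads, as for CLGN, an endoplasmic reticulum chaperone best known from the testis, which was 4.77, 6.80 and 9.23 in effusion lines and never above 5.58 in primary lines. SNAP91 was at most 5.41 in primary lines, below their array medians of 5.435 to 5.58. It passed the filter on low values through effusion lines only, so its p is description only. The highest primary levels of CLGN and CNIH3, 5.58 and 5.63, were close to those medians. For these 15 genes an effusion line lay above the midpoint of the group means for 11 (COLO824) to 14 (CAL51) of them, and a primary line for 0 (HCC1395 and HCC38) to 6 (HCC1187). These genes were picked on this contrast, so those counts describe the lines and are no test.

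MBD4, a DNA glycosylase that removes mismatched bases, had the smallest p among genes lower in effusion lines. Its levels were 8.56, 9.09 and 9.88 in effusion lines and 9.76, 9.97 and 10.73 in primary lines. Only MDAMB468 reached the primary range, and the difference was -0.98 (-1.38 to -0.59, p = 6.3e-05 by limma). YEATS2, a histone reader of the ATAC acetyltransferase complex, was 9.35, 9.83 and 10.22 in effusion lines and 10.13, 10.48 and 10.91 in primary lines, with a difference of -0.70 (-1.02 to -0.38). RARG, a retinoic acid receptor, was 5.47, 6.75 and 8.02 in effusion lines and 7.29, 8.42 and 8.85 in primary lines. It was lowest in COLO824 and highest among effusion lines in MDAMB468, with a difference of -1.39 (-2.13 to -0.64). SPEN, a transcriptional repressor, was the 1 gene whose groups did not overlap. It lay between 10.24 and 10.65 in effusion lines and between 10.66 and 11.24 in primary lines, so the groups nearly touched, at COLO824 and HCC1187, and the difference was small at -0.44 (-0.69 to -0.19). With averaged probe sets 0 genes lower in effusion lines and 1 higher had groups that did not overlap, and after a further quantile normalization 0 genes did in either direction.

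HLA-DQB1, a chain of MHC class II, had the largest difference of the 15 genes leading in this direction, -4.02 (-6.31 to -1.73). It was 2.94, 3.41 and 6.11 in effusion lines and 2.95, 8.93 and 10.65 in primary lines. BT549 and HS578T were as low as the effusion lines, and the other 8 primary lines were all above MDAMB231, the highest effusion line. HLA genes are polymorphic and resemble each other, and the part of unequal probe match between lines was not tested. The other 10 of these 15 genes were INTS6L, TBCCD1, TTC14, FAM118A, EMC2, MTHFSD, ATXN3, MARF1, POLR2K and AARS1. They include EMC2 of the membrane protein insertion complex, POLR2K of the RNA polymerases and AARS1, the alanyl-tRNA synthetase, and the differences of the 10 lay between -1.91 for INTS6L and -0.52 for POLR2K.

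**Figure D1:**
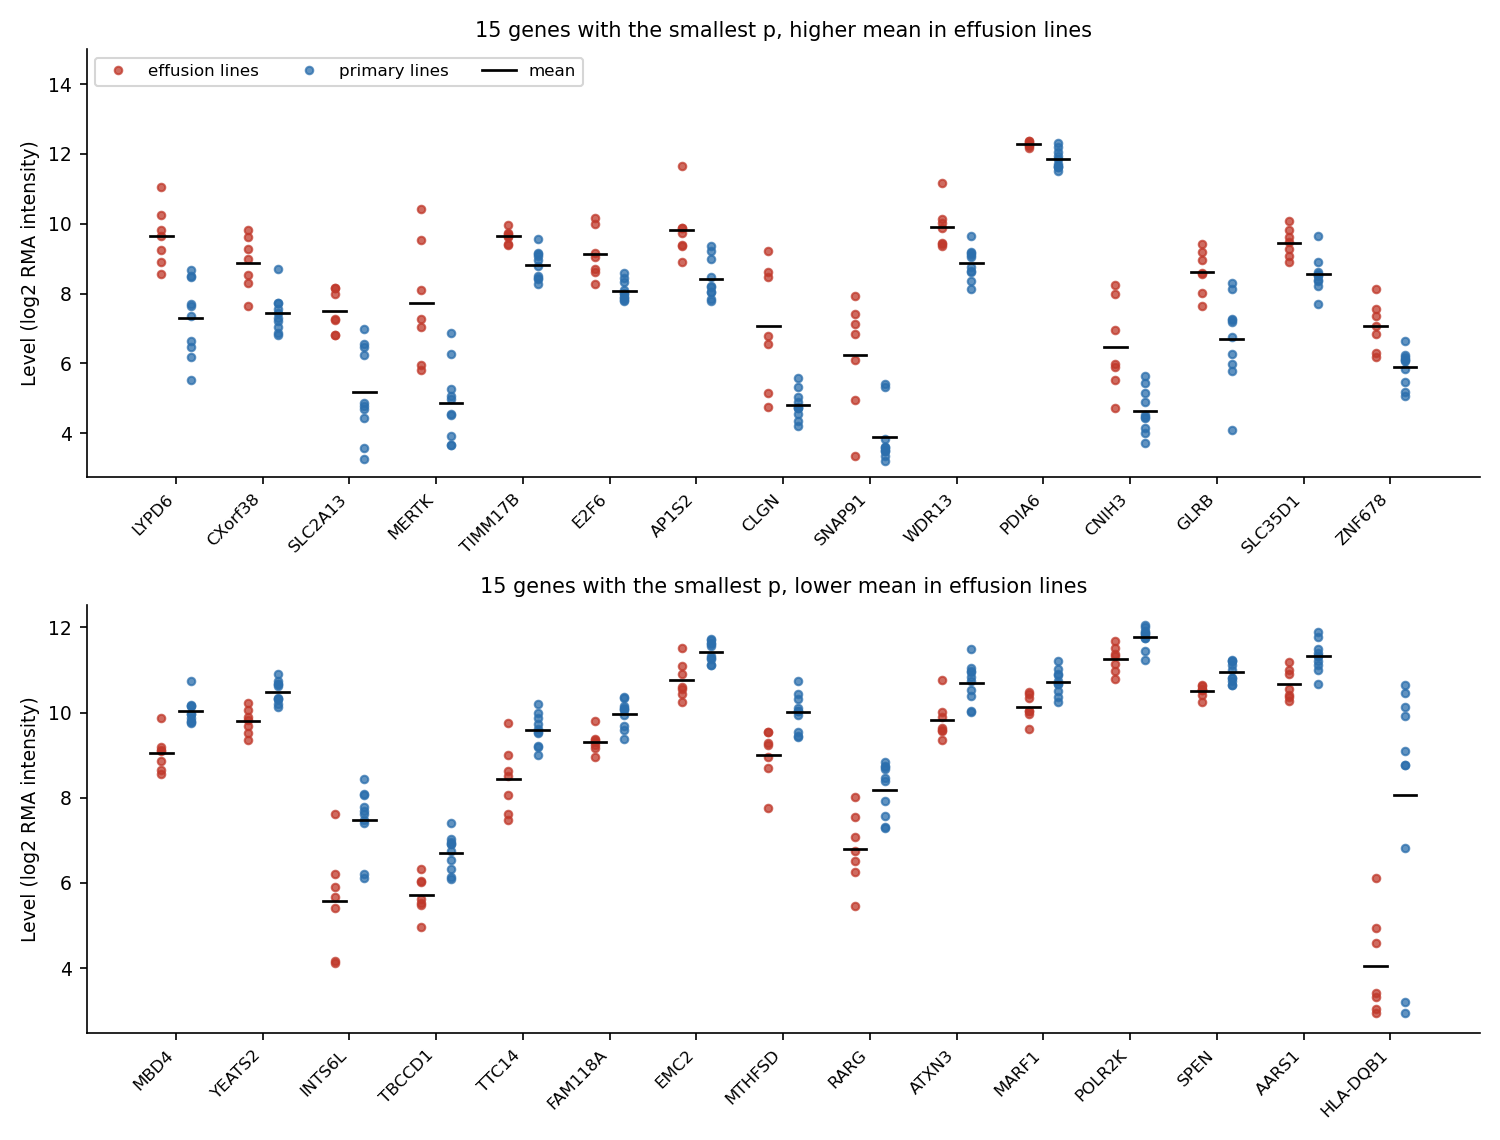
Log2 RMA intensity of the 15 genes with the smallest unadjusted p in each direction (x axis, in order of p), one point per line, effusion lines in red at the left of each pair and primary lines in blue, with black bars for group means. The groups overlap for 29 of the 30 genes, and for SPEN the highest effusion line (10.65) and the lowest primary line (10.66) nearly touch.

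Genes were then read in 32 lists that group them by role. Each list is described by its counts and the median of its members' differences, to be set beside the median of 0.01 and the 3.37% higher and 2.51% lower at unadjusted p over all genes. Of all genes tested 6967 had a higher and 6494 a lower mean in effusion lines. Members of a list are read in the same lines and can vary together, so their counts are not counts of independent results. A list score is the mean, over the members tested, of a line's distance from the gene's median in the 17 lines. No member of any list had an adjusted p under 0.05.

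**Figure D2:**
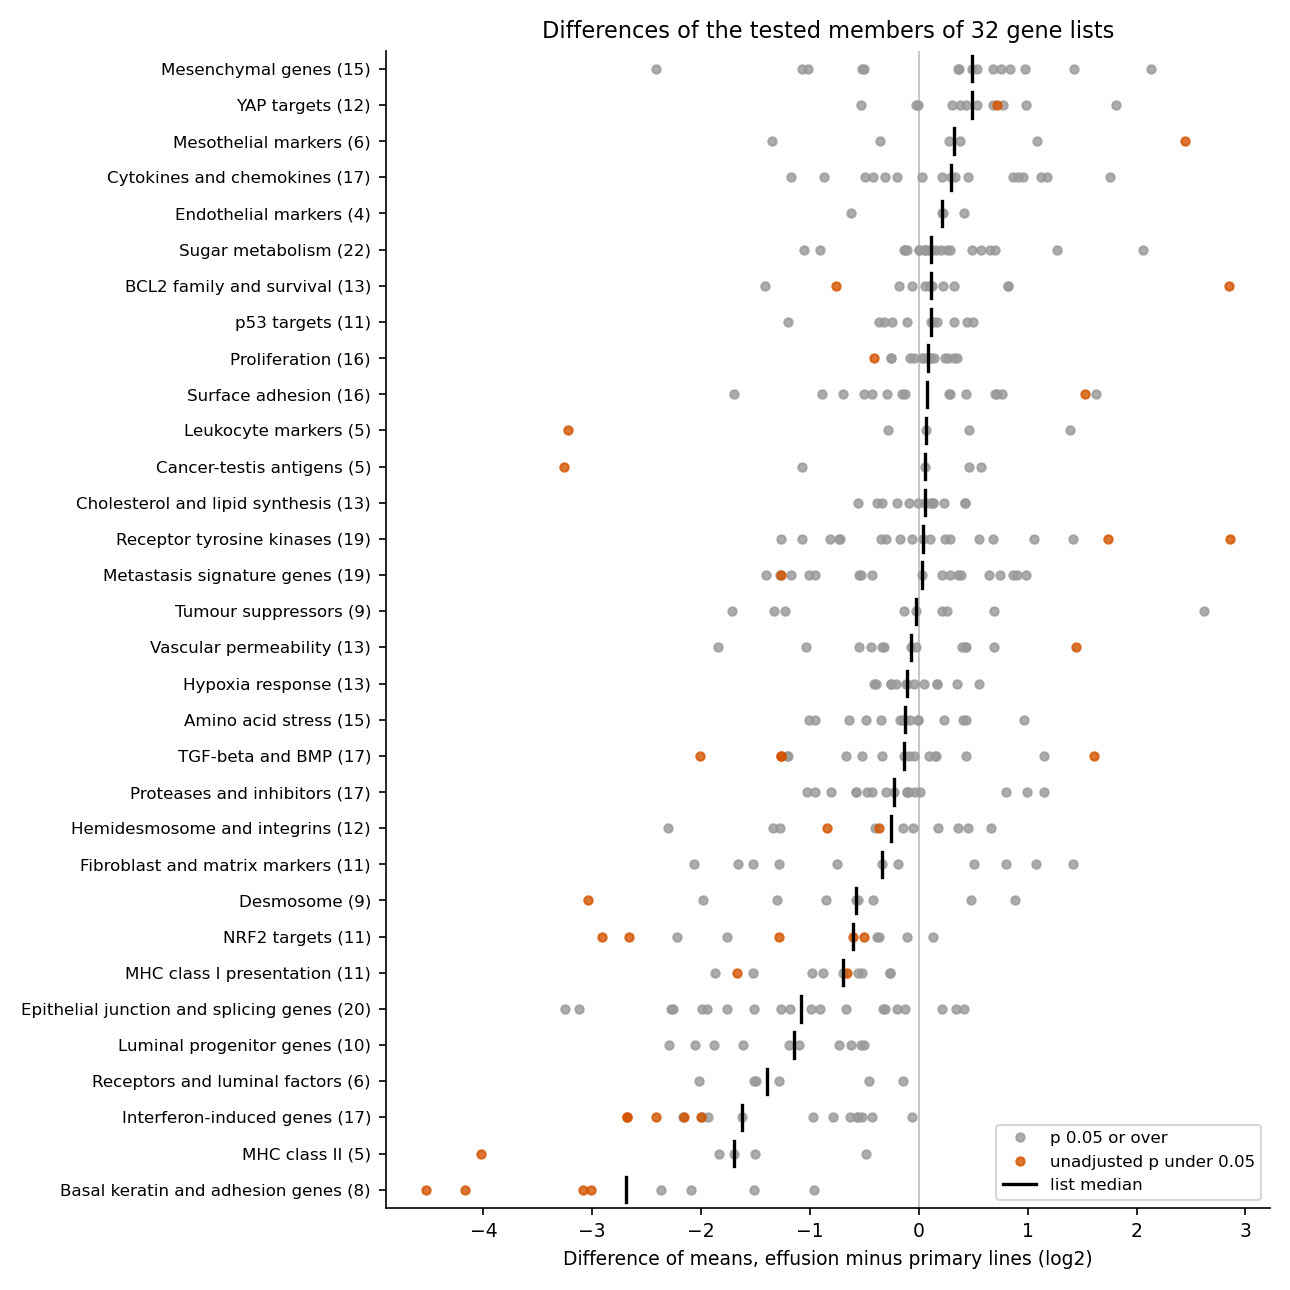
Difference of means between effusion and primary lines (x axis, log2) for each tested member of the 32 lists (rows, with the number of tested members), ordered by the list median (black bar). Orange points have an unadjusted p under 0.05. The lists at the bottom, among them basal, MHC class II and interferon-induced genes, have all members left of 0, and most lists are spread around 0.

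Interferon-induced genes, which cells switch on against viruses, had lower means in effusion lines for all 17 members tested, with a median difference of -1.63. At an unadjusted limma p under 0.05 there were 5 members lower and 0 higher, namely IFI6, OAS1, OAS3, OAS2 and XAF1, where the last pair falls outside the rule for named genes and was chosen after its values were seen. IFI6, a mitochondrial and endoplasmic reticulum protein that protects cells from death, was 8.21, 9.86 and 12.58 in effusion lines and 10.96, 12.35 and 13.77 in primary lines (95% interval of the difference -3.30 to -0.70, unadjusted limma p = 0.00471). OAS1, which makes the messenger that activates RNA decay, was 3.91, 5.53 and 8.92 in effusion lines and 5.63, 8.71 and 10.93 in primary lines, a difference of -2.68 (-4.47 to -0.89). The groups overlapped for both genes. The score was low in 3 effusion lines, COLO824 at -3.70, CAL51 at -3.15 and CAL120 at -1.95. MDAMB436, MDAMB157 and MDAMB231 lay between 0.58 and 0.84, inside the primary range of -1.21 (HS578T) to 2.08 (HCC1187). Without the MDAMB lines 13 members had an unadjusted p under 0.05, all lower in effusion lines, and the list median was -3.22. Without the HCC lines 0 members did, and the median was 0.21, with 8 members negative. Leaving out CAL51 gave 3 such members, as did array quality as a term.

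MHC class I presentation, which loads peptides for T cells and shares its induction with the interferon genes, was also lower on average in effusion lines for 11 of 11 members, with a median of -0.69, and 2 members, PSMB9 and TAP2, had an unadjusted limma p under 0.05. PSMB9, a subunit of the immunoproteasome, was 6.25, 9.62 and 11.13 in effusion lines and 8.46, 10.44 and 11.26 in primary lines. CAL51, CAL120 and COLO824 were the 3 lowest of all 17 lines. HLA-C, a classical class I heavy chain, was 9.49, 11.79 and 12.78 in effusion lines and 11.44, 12.22 and 12.68 in primary lines, again with CAL51, CAL120 and COLO824 below every other line. The low B2M of MDAMB157 stood alone, since the other 6 effusion lines lay between 11.46 and 13.26 and the primary lines between 12.89 and 13.30. Leaving out 1 line at a time gave between 0 such members (without CAL51) and 7 (without MDAMB157). With all lines HLA-C differed by -0.88 (-1.80 to 0.04, adjusted limma p = 0.845) and PSMB9 by -1.67 (-3.03 to -0.31, adjusted limma p = 0.781). Without the MDAMB lines, HLA-C at -2.32 (adjusted limma p = 0.00447) and PSMB9 at -3.66 (adjusted limma p = 0.0166) passed the threshold for CAL51, CAL120 and COLO824 against the 10 primary lines. That subset keeps the 3 lines described above as lowest, so it is no separate evidence. Over the alternatives and left-out lines, the count of members with a lower mean was never under 8 of 11, and that lowest count came without the HCC lines.

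MHC class II genes are made by antigen-presenting cells and can be induced by interferon gamma. All 5 members tested had lower means in effusion lines, with a median of -1.69, and HLA-DQB1 alone had an unadjusted limma p under 0.05. CD74, the invariant chain, was 5.35, 6.34 and 11.89 in effusion lines and 5.34, 8.76 and 11.99 in primary lines, a difference of -1.69 (-3.98 to 0.59). MDAMB231 stood apart on its side, with a class II score of 3.04 against -0.36 and below in the other 6 effusion lines. Primary lines were split, with HS578T and BT549 under -2 and the other 8 between 0.18 and 3.59. Without MDAMB231 there were 4 members at that p and the median was -2.51. Without the HCC lines 3 members were tested and the list median was 0.55, so its direction turned with those lines.

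**Figure D3:**
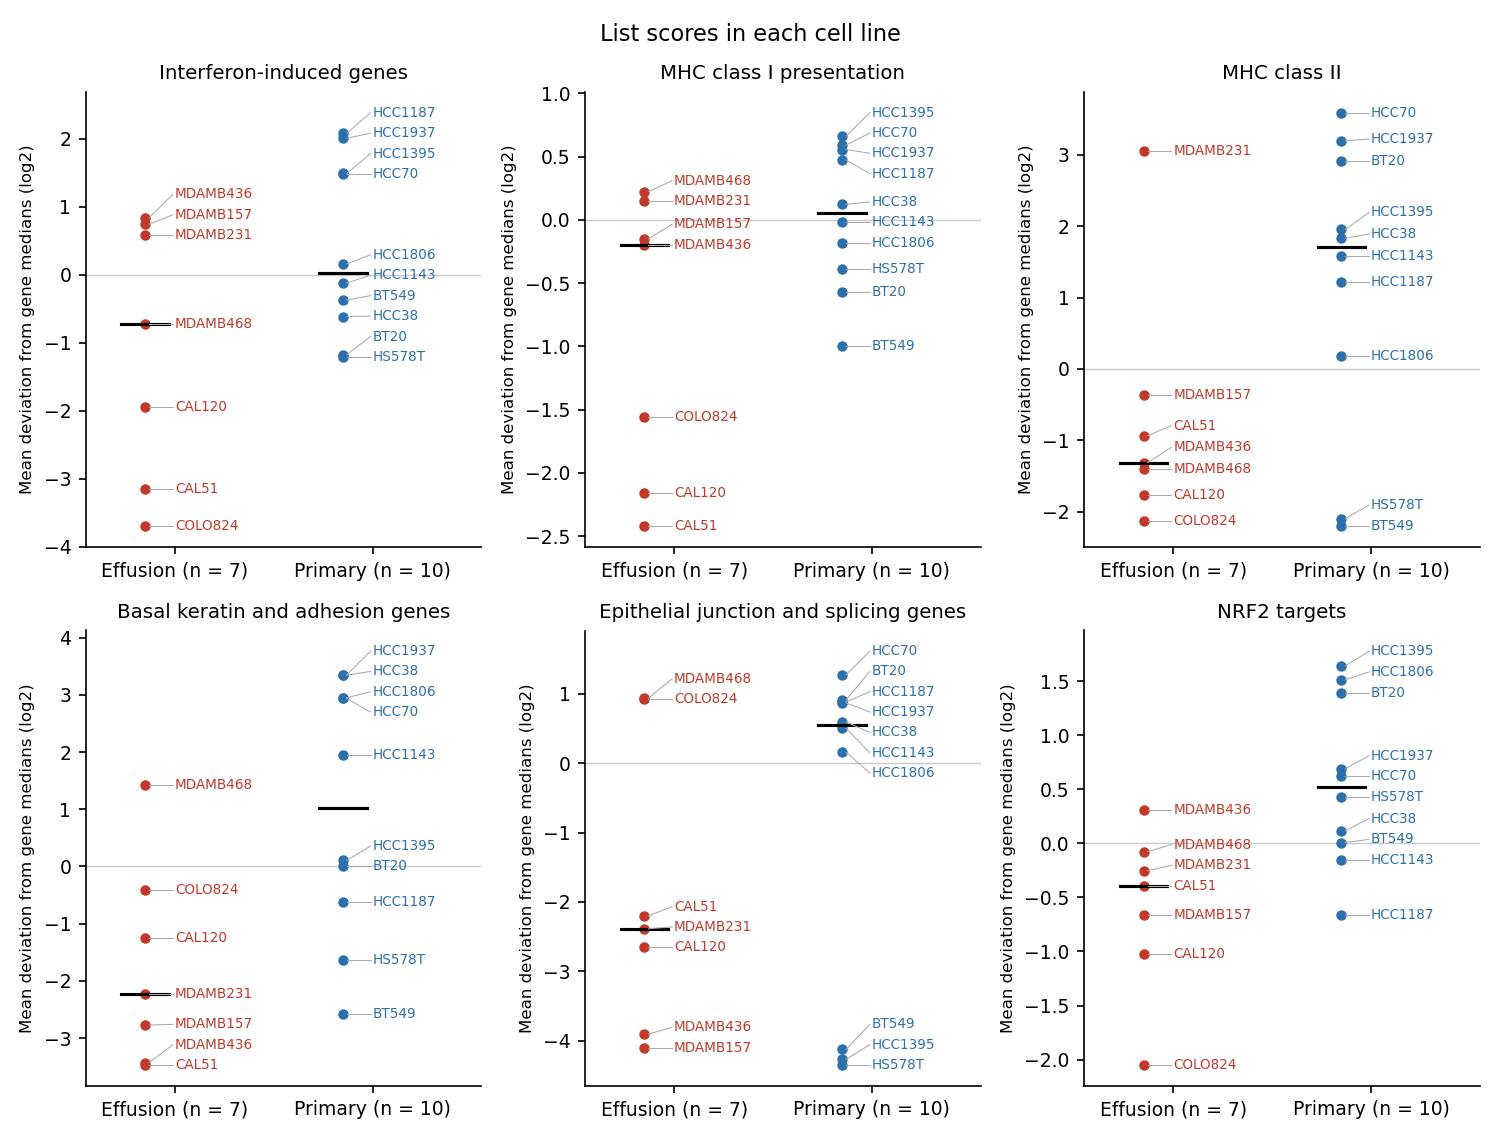
Scores of 6 gene lists (y axis, mean log2 deviation from each gene's median) in every line, effusion lines in red at the left and primary lines in blue at the right of each panel, with black bars for group medians. COLO824, CAL51 and CAL120 have the lowest interferon and MHC class I scores, and the epithelial score splits both sides into a high and a low set.

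Basal keratin and adhesion genes, which mark the outer layer of breast ducts, had the lowest median of all lists, -2.69, and all 8 members tested were lower on average in effusion lines. Of the 17 genes listed only 9 were measured, and the only keratins tested were KRT5 and KRT15. At an unadjusted limma p under 0.05 there were 4 such members, SERPINB5, CDH3, KRT5 and DSG3, of which DSG3 was chosen after its values were seen. DSG3 was at most 3.99 in effusion lines, below their array medians. It passed the filter on low values through primary lines only, so its p is description only. SERPINB5, the serpin maspin, was 3.06, 3.67 and 9.95 in effusion lines and 3.95, 11.44 and 12.82 in primary lines, a difference of -4.53 (-7.49 to -1.57). CDH3, the P-cadherin of basal cells, was 4.96, 6.58 and 9.83 in effusion lines and 5.85, 11.23 and 12.12 in primary lines, a difference of -3.08 (-5.05 to -1.12). KRT5, the main basal keratin, was above 10 in 2 effusion lines, MDAMB468 at 12.53 and COLO824 at 10.89, and in 7 primary lines, with a difference of -4.17 (-7.63 to -0.71). The sides overlapped for all 3 genes. Among primary lines BT549 was low for SERPINB5 and KRT5, and HS578T was the lowest for CDH3. Without the MDAMB lines 1 member had such a p and the median was -2.57. Without the HCC lines 0 members did and the median was -0.23. Leaving out MDAMB468 or HCC1187 gave 6 members.

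PKP1, a plakophilin of desmosomes in stratified epithelium, was at 4.95 or below in every effusion line, where array medians ran from 5.49 to 5.57. It passed the filter on low values through primary lines only, so its p is description only. In primary lines it was 4.06, 8.13 and 10.74, with 6 lines above 7, BT20, HCC1395 and HS578T as low as the effusion lines, and BT549 at 5.18. The difference was -3.04 (-5.17 to -0.90), and PKP1 was the 1 of 9 desmosome members with an unadjusted limma p under 0.05. The list median was -0.57 and turned to 0.84 without the HCC lines.

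Luminal progenitor genes mark the cells from which basal-like tumours are thought to arise. All 10 members tested had lower means in effusion lines (median -1.14), but 0 had an unadjusted limma p under 0.05 and 0 an adjusted one. ALDH1A3, an aldehyde dehydrogenase of progenitor cells, was 3.67, 9.90 and 12.53 in effusion lines and 9.48, 11.89 and 12.77 in primary lines, a difference of -1.88 (-3.89 to 0.13). MDAMB468 had a score of 3.20, within the top of the primary range. Without the HCC lines 3 of 7 tested members had lower means and the median was 0.62.

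Epithelial junction and splicing genes and their mesenchymal counterparts describe the 2 ends of the triple-negative class. Of 20 epithelial members 17 had lower means in effusion lines (median -1.09), with 0 at an unadjusted limma p under 0.05. The score split each side, being between -4.10 and -2.20 in 5 of 7 effusion lines and 0.92 and 0.94 in COLO824 and MDAMB468. In primary lines it was between -4.35 and -4.13 in HS578T, HCC1395 and BT549 and between 0.16 and 1.28 in the other 7. ESRP1, a splicing factor of epithelial cells, was 12.20 and 12.03 in COLO824 and MDAMB468 and at most 6.26 in the other effusion lines. In primary lines it was at most 3.91 in those 3 lines and at least 11.68 in the other 7. ZEB1, a repressor of epithelial genes, ran the other way and was 2.78, 9.77 and 10.66 in effusion lines and 2.44, 3.91 and 11.20 in primary lines, a difference of 2.13 (-1.37 to 5.63). Of 15 mesenchymal members 10 had higher means in effusion lines (median 0.49, 0 at an unadjusted limma p under 0.05).

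The interferon score did not follow the epithelial score line by line. COLO824 was high in the epithelial score and lowest in the interferon score, while MDAMB436 and HCC1395 were low in the epithelial score and had interferon scores of 0.84 and 1.49. With the epithelial score as a term in the fit, the interferon list had 6 members at an unadjusted limma p under 0.05, the basal list 4 and the NRF2 list 4, all lower in effusion lines, and 0 genes passed the adjusted threshold. The median of the luminal progenitor list was then -0.25. LYPD6 had the smallest adjusted limma p of that fit, 0.153, with a difference of 2.61.

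NRF2 targets are enzymes of glutathione and quinone metabolism that guard against oxidants. Of 11 tested members 10 had lower means in effusion lines, with a median of -0.60, and 5 of them had an unadjusted limma p under 0.05. These were NQO1, AKR1C3, GCLM, HMOX1 and AKR1B10, the last pair chosen after their values were seen. NQO1, a quinone reductase, was 12.35, 12.73 and 13.21 in effusion lines and 12.35, 13.36 and 13.90 in primary lines, a difference of -0.50 (-0.90 to -0.10). AKR1C3, an aldo-keto reductase that also acts on steroids, was 2.79, 8.24 and 11.28 in effusion lines and 7.41, 10.80 and 13.02 in primary lines, a difference of -2.67 (-4.91 to -0.43). COLO824 was the lowest line for AKR1C3, and BT20 and HCC1395 were among the highest primary lines for both genes. Leaving out 1 line gave 2 such members without COLO824, 3 without CAL120 and 7 without HCC1187, and leaving out the HCC lines, or HS578T and MDAMB157 together, gave 2. The list median stayed negative in these settings and was -0.68 without the HCC lines.

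Regulators of cell survival matter for cells that float in fluid, since detachment can trigger death. BCL2, the founding inhibitor of mitochondrial death, was 7.15, 7.89 and 11.41 in effusion lines and 3.37, 4.98 and 8.87 in primary lines. COLO824 was the highest line, BT549, HCC1187 and HCC1806 lay inside the effusion range, and the other 7 primary lines were below every effusion line. The difference was 2.85 (1.21 to 4.49, unadjusted limma p = 0.0019). BID, a death promoter of the same family, was 9.45, 9.87 and 11.16 in effusion lines and 9.42, 10.68 and 11.44 in primary lines, a difference of -0.76 (-1.36 to -0.15). The 13 members tested had a median difference of 0.11, with BCL2 the 1 higher and BID the 1 lower at unadjusted p. Without the HCC lines the BCL2 difference was 2.15 (unadjusted limma p = 0.0743), and without the MDAMB lines it was 4.12.

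Receptor tyrosine kinases relay growth factor signals. Of 19 tested, 10 had higher and 9 lower means in effusion lines, and 2, MERTK and INSR, had an unadjusted limma p under 0.05. INSR, the insulin receptor, was 9.56, 9.81 and 11.42 in effusion lines and 4.66, 8.41 and 10.68 in primary lines, a difference of 1.74 (0.24 to 3.23). Effusion lines kept to a narrow band apart from MDAMB468, the highest, and HS578T was the lowest primary line. EGFR was 8.81, 10.63 and 13.18 in effusion lines and 9.89, 10.67 and 12.22 in primary lines (difference -0.35, -1.42 to 0.72), with MDAMB468 the highest of all 17 lines. MET, the receptor of hepatocyte growth factor, differed by -0.07 (-0.92 to 0.78), AXL by 0.68 (-3.55 to 4.92) and PDGFRB by 1.42 (-1.17 to 4.01).

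Among adhesion and growth factor genes, 1 of 16 surface adhesion genes (PODXL) and 1 of 13 genes of vascular permeability (NRP2) had an unadjusted limma p under 0.05. So did 2 of 12 integrin and hemidesmosome genes (ITGB1 and ITGB5) and 4 of 17 TGF-beta and BMP genes. Over all genes tested 3.37% were higher and 2.51% lower at that p. PODXL, an anti-adhesive sialomucin, was 11.08, 11.80 and 13.06 in effusion lines and 7.79, 10.74 and 12.57 in primary lines, a difference of 1.53 (0.25 to 2.81). NRP2, a co-receptor of VEGF-C, was 5.70, 7.32 and 10.04 in effusion lines and 4.63, 5.82 and 7.50 in primary lines, a difference of 1.45 (0.22 to 2.67). ITGB1, the common beta chain of matrix integrins, was abundant on both sides, at 12.47, 12.87 and 13.21 in effusion lines and 12.81, 13.26 and 13.41 in primary lines. Its difference of -0.36 (-0.60 to -0.13) was small and came with narrow spreads. ITGB5, the beta chain of a vitronectin receptor, was 7.96, 9.67 and 10.82 in effusion lines and 9.36, 10.31 and 11.69 in primary lines, a difference of -0.84 (-1.66 to -0.03). INHBA, a subunit of activin, and ID1 and ID3, targets of BMP signals, had differences of -2.01 (-3.84 to -0.18), -1.27 (-2.39 to -0.14) and -1.26 (-2.48 to -0.05). These 3 were the TGF-beta and BMP genes with a lower mean at that p, and TGFBR3 had a higher one.

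Genes named in signatures of spread to lung, bone and brain did not separate the sides. Of 19 tested, 10 had higher and 9 lower means in effusion lines, the median was 0.03, and ID1 was the 1 member with an unadjusted limma p under 0.05. CXCR4, a chemokine receptor, was 2.95, 9.54 and 12.95 in effusion lines and 3.48, 8.29 and 11.95 in primary lines, a difference of 0.86 (-2.41 to 4.13). MMP1, a collagenase, was 2.12, 4.29 and 11.22 in effusion lines and 2.42, 4.73 and 13.33 in primary lines, a difference of -0.43 (-4.05 to 3.19). PTGS2, which makes prostaglandins, differed by -1.40 (-4.63 to 1.83) and SPARC, a matrix protein, by 0.36 (-3.48 to 4.19). These intervals are wide, so differences of several log2 units in 1 or both directions were not excluded for CXCR4, MMP1, PTGS2 and SPARC. Some other members had narrower intervals, such as IL11 (-0.76 to 1.18). Of 22 genes of sugar metabolism 17 had higher means in effusion lines, but the median was 0.11 and 0 had an unadjusted limma p under 0.05. Of 16 proliferation genes 1, MCM2 of the replication helicase, had such a p, at -0.41 (-0.79 to -0.03), and the median was 0.08.

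Markers of other cells that fluids or tumours hold were read as a check on the lines. Of the mesothelial list 6 of 8 measured markers passed the filter on low values, and their mean level over the 8 was 4.40, 4.88 and 6.48 in effusion lines and 3.65, 4.43 and 6.83 in primary lines. WT1, a transcription factor of mesothelium that tumours also express, was 3.85, 8.51 and 10.40 in effusion lines and 2.63, 5.57 and 8.82 in primary lines, a difference of 2.44 (0.10 to 4.79, unadjusted limma p = 0.0423). MSLN, a defining mesothelial antigen, differed by 0.27 (-1.12 to 1.67), and KLK11 of the same list by -1.35 (-3.28 to 0.58). Of the 6 mesothelial markers tested 4 had higher and 2 lower means in effusion lines, and the list median was 0.33. The part of other cells in these results was not tested. Of 11 leukocyte markers 5 passed the filter, and PTPRC and CD3E did not. Of those that passed, CD14 was 5.20, 7.90 and 11.13 in effusion lines and 4.40, 7.13 and 11.17 in primary lines. CD68 was 3.22, 6.85 and 7.84 in effusion lines and 3.96, 6.47 and 8.26 in primary lines. HCLS1 did not pass but reached 10.78 in primary lines, where its median was 2.90. PTPRC, the leukocyte common antigen, was 3.17, 3.66 and 5.47 in effusion lines and 3.48, 3.63 and 3.89 in primary lines. CD3E, a chain of the T cell receptor complex, had medians of 3.26 in effusion lines and 3.49 in primary lines. LCP1, an actin bundler of leukocytes found in many tumour lines, was 3.51, 6.80 and 10.43 in effusion lines and 6.53, 11.70 and 12.85 in primary lines, a difference of -3.23 (-5.69 to -0.76). Of the 5 leukocyte markers tested 3 had higher means in effusion lines, and the list median was 0.06. LAPTM5, a lysosomal protein of blood cells, was 3.71, 5.92 and 9.91 in effusion lines and 3.29, 3.76 and 7.68 in primary lines, a difference of 1.39 (-0.54 to 3.31). Of 8 endothelial and 11 matrix markers 4 and 11 passed the filter, with 0 at an unadjusted limma p under 0.05.

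Likeness between lines was then read within and across the sides. Over the 1000 most variable genes the median Pearson r was 0.26 for the 21 effusion pairs, 0.32 for the 45 primary pairs and 0.24 for the 70 mixed pairs, so both medians within a side were above that of the mixed pairs, by little for effusion lines. These pairs share lines and are given as a description. Of the 7 effusion lines 3 were most like another effusion line, CAL120 and MDAMB231 being each other's nearest at 0.46 and CAL51 nearest to MDAMB231. MDAMB468 was most like HCC70 at 0.66, the highest r of all pairs, MDAMB157 most like HS578T, MDAMB436 most like BT549 and COLO824 most like HCC1143. Of the 10 primary lines 6 were most like a primary line, and BT20, HCC1187, HCC1937 and HCC70 were most like MDAMB468.

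**Figure D4:**
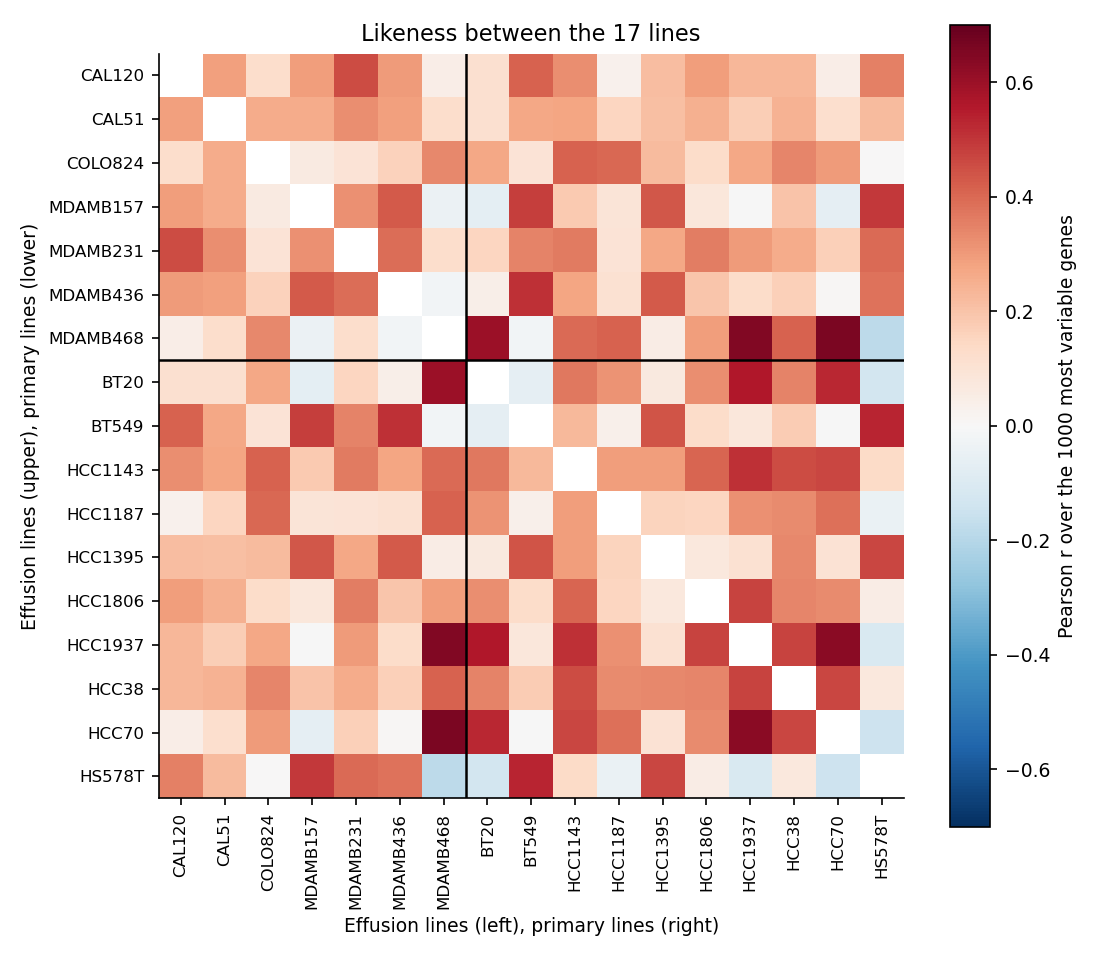
Pearson r between each pair of the 17 lines over the 1000 most variable genes (colour scale from -0.7 to 0.7, own pairs blank), effusion lines above and to the left of the black lines. The darkest mixed cells join MDAMB468 to HCC70 (0.66) and HCC1937 (0.65).

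Each line also had genes that no other of the 17 showed at that level. Between 1 (HCC1395 and HCC70) and 11 (HCC1187) genes of a line exceeded the next line by at least 3 log2 units. Among effusion lines the widest gaps were for LEFTY1, an inhibitor of nodal signals, in CAL51 (11.13 against 5.65 in the next line) and GPAT2, an acyltransferase best known from germ cells, in MDAMB231 (11.25 against 5.86). HSD11B1, which regenerates cortisol, led in MDAMB436 at 11.69, the neuropeptide NPY in MDAMB157 at 11.67, and KRTAP2-3 in CAL120, RPRML in COLO824 and S100A7A in MDAMB468 likewise. Among primary lines IRS4, an insulin receptor substrate, had the widest gap, 12.92 in HCC1187 against 6.36 in the next line, followed by TCN1, a vitamin B12 carrier, in HCC70 at 12.44. Tumour suppressors were low in single lines on either side. RB1, the brake on cell cycle entry, was 1.95 in MDAMB468 and 4.86 in BT549, and NF2, which encodes merlin, was 4.64 in MDAMB436. CDKN2A, which encodes p16 and p14ARF, was under 4 in 1 effusion line, MDAMB231, and in 5 primary lines, BT20, HCC1395, HCC1806, HCC38 and HS578T.

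Genes with an unadjusted p under 0.05 were unevenly spread over the chromosomes. On the X chromosome 67 of 445 genes tested, 15.1%, had such a p with a higher mean in effusion lines, against 3.37% of all genes, and 3 with a lower mean. After X, the share higher was largest on chromosome 21, with 11 higher (7.33%) and 1 lower of 150. On chromosome 2 there were 61 higher (6.77%) and 3 lower of 901, and on chromosome 4 there were 29 higher (5.75%) and 3 lower of 504. Over all genes 2.51% were lower at that p. On chromosome 3 there were 55 lower (7.20%) and 22 higher of 764, and on chromosome 22 there were 22 lower (6.79%) and 2 higher of 324. On chromosome 13 there were 13 lower (5.5%) and 12 higher of 237, and on chromosome 16 there were 30 lower (5.0%) and 3 higher of 597. Neighbouring genes are not independent, so no test was made.

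Blocks of 25 neighbouring tested genes, in RefSeq order on GRCh38.p14, localised this. Of 526 blocks 13 held at least 6 genes with an unadjusted limma p under 0.05 in 1 direction. Of these, 5 were adjacent on X and ran from MID1 to CCDC22, and the block from ZNF182 to CCDC22 held 15 of 25. In this X stretch of 125 genes 48 were higher at that p and 109 had a higher mean, with a median difference of 0.51. The other 320 X genes had 19 higher and a median of 0.16. The median deviation over the stretch was positive in 6 of 7 effusion lines, from 0.17 (CAL51) to 0.78 (MDAMB157), and -0.05 in COLO824. It was 0 or negative in 9 of 10 primary lines, down to -0.47 in HCC1143 and HCC38, and 0.21 in BT549. On chromosome 3, 4 blocks with lower means lay between GTF2E1 and YEATS2, a stretch of 250 genes with 43 lower and 0 higher at that p and a median of -0.28. MBD4, TBCCD1, TTC14 and YEATS2, all named above, are on chromosome 3, and CXorf38, TIMM17B, AP1S2 and WDR13 are on X. Against these directions, INTS6L is on X and had a lower mean in effusion lines, and the chromosome 3 block from IL17RD to SLC25A26 held 7 genes higher and 0 lower at that p. Both stretches were chosen after the block values were seen. Without MDAMB157 the X stretch had 29 such genes, without the MDAMB lines 11 and without the HCC lines 11, and the chromosome 3 stretch had 20 without the MDAMB lines and 18 without the HCC lines.

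**Figure D5:**
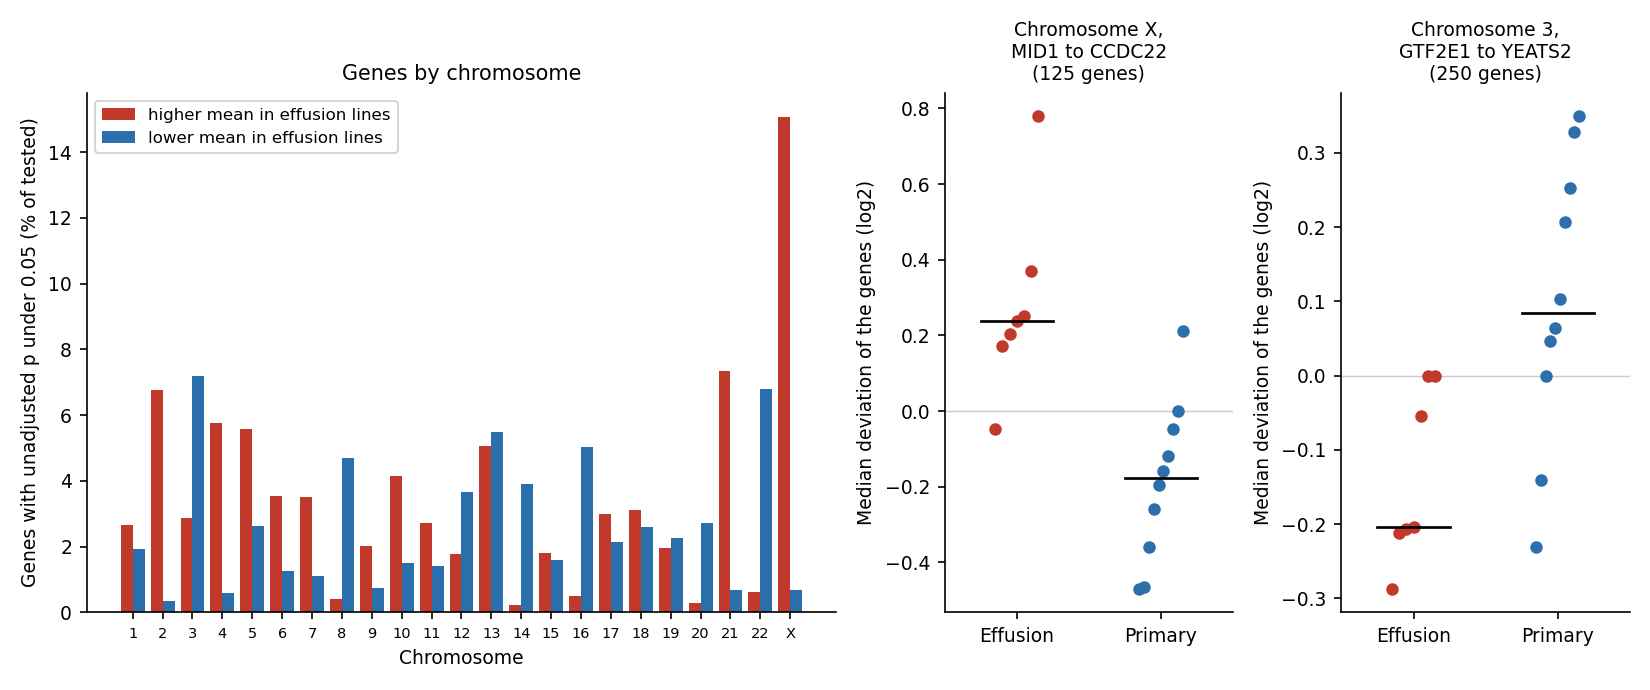
Left, percent of tested genes on each chromosome with an unadjusted p under 0.05, higher (red) or lower (blue) in effusion lines, where X has the tallest bar at 15.1%. Middle and right, median log2 deviation of the genes in the chromosome X and chromosome 3 stretches, one point per line with bars for group medians, effusion lines at the left, and overlap between the sides in both.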

How the data were processed

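The deposited values are on a log2 scale. Per the submitters' processing notes, the authors used RMA and Affymetrix Power Tools, with no version given. The sources used here do not state if all arrays entered 1 normalization. RMA evens out array distributions, so a shift shared by all genes is not measured. RNA was processed in plates with a Nugen amplification and biotin label, per the labels.

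The 35184 probe sets (of 52377) annotated to a single gene were kept, and 35134 of them matched a RefSeq gene ID. Another 374 list more than 1 gene and 16819 have no gene name. For each of 19798 genes the probe set whose mean over all lines was largest was taken. The 13461 genes above the array median in at least 3 of the 17 lines were tested with limma 3.58.1 in R 4.3.3 (lmFit, eBayes with trend and robust), with Benjamini-Hochberg adjustment over all of them and a threshold of 0.05. Intervals are 95% intervals of that fit. Python 3.11.15 with pandas 2.3.3, numpy 2.4.6, scipy 1.17.1 and matplotlib 3.10.9 did the rest. The fit was tested on simulated data.

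Genes named were the 15 with the smallest p in each direction, up to 5 in each direction with the widest gap between groups that do not overlap, the 3 members of each of 32 lists with the smallest p, all members of the receptor, receptor kinase and metastasis lists, and the gene with the widest gap in each line. Genes outside this rule (LUM, CDH1, B2M, ESRP1, TGFBR3, MSLN, PTPRC, CD3E, CD14, CD68, HCLS1 and those marked in the text) were chosen after their values were seen. The lines, lists and rule were chosen with earlier results of these data known. Alternatives were averaged probe sets, renormalization by quantiles over the 17 lines, looser and tighter filters on low values, the epithelial score or array quality as a term, MDAMB157 averaged with MB157, groups of lines or each line left out, and eBayes without trend. Counts for the lists and chromosome stretches under each setting were added after seeing the data. Leaving out cross-hybridising probe sets was not run, since 0 single-gene probe sets carried that mark.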

Additional observations from a re-analysis of the deposited data

Results flagged for a closer look

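Genes and list scores named were searched, on each side, for a line whose distance to the nearest other line was a large share of the side's range (Dixon's 95% critical value, 0.568 for 7 lines and 0.466 for 10). Chance flags about 1 in 20 groups, and 26 of 212 groups (12.3%) stood out here. Many of these genes were named for the level of a single line, and no explanation was tested.

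Among effusion lines, single lines were low for ALDH1A3 (3.67 in CAL51), TAP2 (8.58 in CAL51), B2M (3.17 in MDAMB157), CDKN2A (3.45 in MDAMB231) and WT1 (3.85 in CAL120). Single effusion lines were high for AP1S2 (11.65) and LEFTY1 (11.13) in CAL51, where PTPRC was 5.47. MDAMB468 was high for BID (11.16), INSR (11.42) and S100A7A (11.33). MDAMB231 was high for CD74 (11.89), GPAT2 (11.25) and the MHC class II score (3.04). MDAMB157 was high for NPY (11.67) and WDR13 (11.16), MDAMB436 for HSD11B1 (11.69) and COLO824 for RPRML (10.77).

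Among primary lines, BT549 was low for PSMB9 (8.46) and RB1 (4.86) and high for NPY (6.42). Single primary lines were high for CXorf38 (8.71 in HCC1937), IRS4 (12.92 in HCC1187), MBD4 (10.73 in BT20), PDGFRB (10.63 in HS578T) and TCN1 (12.44 in HCC70).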

How the results depend on the processing

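Counts of genes at an adjusted limma p under 0.05 stayed at 0 in both directions under the other probe set summary, second normalization, filters, added terms, averaging with MB157, eBayes setting and each single line left out, with lowest and highest counts of 0 and 0 over the lines left out. The exceptions were 2 settings that also remove most of a side. Without the MDAMB lines, 3 effusion against 10 primary lines, 1 gene (HOXD8) was higher and 5 (FAM20C, HLA-C, IFI16, PSMB9 and TRIM6) were lower. Without the HCC lines, 7 against 3, 1 gene (CCNJL) was higher and 0 were lower. CCNJL passed the filter on low values there through effusion lines only, so its call is description only. These 7 genes were chosen after their values were seen, and fewer lines took part by construction. The smallest adjusted limma p over single lines left out ran from 0.0623 without MDAMB468 to 0.906 without HCC70, and was 0.153 with the epithelial score as a term. No paired analysis was possible because each line is 1 array of a separate donor, and its number only names it. Of the 175 genes under the naming rule 44 changed sign in at least 1 setting. The precision is limited by 17 single arrays, by 1 array for each line and by origin that cannot be told apart from the collection.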

Other observations

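The 15 leading genes of each direction were read in 5 lines of the MDAMB and HCC collections outside the comparison. They are not lines of the same receptor class, since ERBB2 was between 12.40 and 13.68 in them and ESR1 reached 12.36 in MDAMB361, so these counts do not bear on the collection. Of the 15 genes higher in effusion lines, MDAMB361 lay above the midpoint of the 2 group means for 12, MDAMB453 for 11 and MDAMB175VII for 8, and HCC1569 for 10 and HCC1954 for 7. Of the 15 genes lower in effusion lines, MDAMB453 lay above the midpoint for 13, MDAMB361 and MDAMB175VII for 7 each, HCC1954 for 11 and HCC1569 for 10. MB157 lay above the midpoint for 10 of the genes in the first set and for 7 in the second.

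In the 3 effusion lines outside the MDAMB collection, CAL51, CAL120 and COLO824, FAM20C, a kinase of secreted proteins, was 5.87 ± 0.75 against 11.28 ± 0.84 in primary lines (mean ± SD), a difference of -5.40. Its adjusted p by limma was 0.00121. IFI16, a sensor of DNA, was 3.67 ± 1.86 in those 3 lines and 10.22 ± 1.29 in the 10 primary lines, and its adjusted p by limma was 0.0165. With all 7 effusion lines neither FAM20C nor IFI16 passed the adjusted threshold. CCNJL, a cyclin relative, was 9.80 ± 0.63 in the 7 effusion lines and 4.29 ± 0.56 in BT20, BT549 and HS578T, a difference of 5.51. Its adjusted p by limma was 0.00177, and with all 10 primary lines its difference was 1.68 (-0.39 to 3.75). In BT20, BT549 and HS578T it was below the array medians. In that setting CCNJL passed the filter on low values through effusion lines only, so its p of 0.00177 by limma is description only. These genes were chosen after their values were seen.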
